A study of Rattus norvegicus with 30 samples.

Results

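Vash1, Vash2, Svbp and Ttl, the genes of the vasohibins, their partner and the tubulin tyrosine ligase, were followed through 30 RNA-seq libraries of rat lung cells. They are 4 of the 30562 rows of the deposited gene table, matched by gene name, and all 4 passed the filter on low counts. The set was selected on the Glenn-minus-sham comparison of these same libraries, in which Vash1 ranked 2 by p-value among the 16171 genes tested. The Glenn-minus-sham values of the 4 genes are therefore given as a description, with no test.

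The libraries came from lung cells sorted on CD31, an endothelial surface protein, with magnetic microbeads, and were collected 3 weeks after surgery on wild-type rats. The Glenn operation joins the superior vena cava to a pulmonary artery, so that a lung receives venous blood of the upper body without blood from the liver. Sham-operated rats were the controls. Rats of either operation were on a control diet, a vitamin A-deficient diet or a vitamin A-excess diet. This made 6 groups of 5 libraries: sham control, sham deficient, sham excess, Glenn control, Glenn deficient and Glenn excess. Strain, age, sex and the lung that was taken are not given in the labels. The labels number the replicates without saying that each was a separate animal, so p-values measure the spread between these samples.

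Alpha-tubulin ends in a tyrosine that can be removed and put back. VASH1 and VASH2, each bound to the small chaperone-like partner SVBP, are carboxypeptidases that cut the tyrosine off polymerised tubulin, and TTL, the tubulin tyrosine ligase, adds it back to free tubulin dimers. Detyrosinated microtubules tend to be long-lived, and motors and plus-end proteins read the state of the tail. VASH1 was first described as a protein that endothelial cells make in answer to VEGF and FGF2 and that restrains the growth of new vessels, while VASH2 was described as favouring it.

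Library totals ran from 22 M to 77.6 M estimated counts, with a median of 40 M. Of the libraries, 22 carried numbers of one series (A) and 8 of a later one (B). Series B held sham deficient replicates 3, 4 and 5, Glenn deficient replicates 4 and 5, and Glenn excess replicates 3, 4 and 5. No control-diet or sham excess library was in it, so the series was unbalanced between groups. The level of the MHC gene RT1-CE16 split the libraries into 13 high and 17 low ones, and all 5 sham excess libraries were low. All series B libraries were high, so the low libraries are a part of series A. Sex-linked transcripts gave 13 male and 17 female libraries. Levels below are in CPM, a gene's counts as a share of the TMM-scaled library total, times 1 M. The endothelial markers Pecam1 (862.6 to 1731 CPM) and Cdh5 (1557 to 2926 CPM) were present in every library. The surfactant gene Sftpc, a marker of type 2 alveolar cells, was at 15060 to 36190 CPM, so the sorted cells held RNA of other lung cells too. In bulk RNA, a change in the number of cells of a type and a change in RNA per cell cannot be told apart.

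Because both vasohibin genes were higher after the Glenn operation, their annotated promoter windows are shown first. Each window runs from 250 bases before to 50 bases after a RefSeq transcript start of the GRCr8 assembly, which is not the mRatBN7.2 build named for the counts. The Vash1 window lies at chr6:112059836-112060135 on the plus strand. Vash2 has 2 windows on the minus strand, at chr13:105091575-105091874 and chr13:105092226-105092525. Capitals mark matches, on either strand, to 6 short patterns: AGGTCA (a core site of nuclear receptors, retinoic acid receptors among them), GGCGCC (a SMAD site of BMP target genes), ACGTG (the core of hypoxia response elements), TGANTCA (AP-1), CACCC (Kruppel-like factors) and TATAAA (the TATA box).
Vash1: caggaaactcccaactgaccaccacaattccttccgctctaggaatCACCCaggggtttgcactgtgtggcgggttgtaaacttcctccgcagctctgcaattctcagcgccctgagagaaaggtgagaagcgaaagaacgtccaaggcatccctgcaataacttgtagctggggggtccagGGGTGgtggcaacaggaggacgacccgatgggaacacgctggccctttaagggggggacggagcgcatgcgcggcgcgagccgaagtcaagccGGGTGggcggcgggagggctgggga
Vash2 window 1: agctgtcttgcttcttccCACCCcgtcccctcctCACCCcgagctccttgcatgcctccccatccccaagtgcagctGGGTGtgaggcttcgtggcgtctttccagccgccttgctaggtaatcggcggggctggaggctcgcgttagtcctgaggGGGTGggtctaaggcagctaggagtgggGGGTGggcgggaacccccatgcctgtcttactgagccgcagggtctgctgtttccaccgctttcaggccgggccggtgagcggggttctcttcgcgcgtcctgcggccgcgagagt
Vash2 window 2: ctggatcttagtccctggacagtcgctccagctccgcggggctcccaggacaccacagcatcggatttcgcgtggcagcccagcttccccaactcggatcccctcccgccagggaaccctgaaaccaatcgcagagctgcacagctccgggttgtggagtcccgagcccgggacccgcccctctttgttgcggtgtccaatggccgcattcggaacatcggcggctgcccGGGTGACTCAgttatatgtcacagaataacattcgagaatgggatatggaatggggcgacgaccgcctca

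In the Vash1 window the capitals are 3 CACCC matches, at positions -204, -68 and 26 from the transcript start, the last 2 of them on the opposite strand as GGGTG. The first Vash2 window held 5 CACCC matches. The second held 1 CACCC match and 1 TGANTCA match, which overlap in the run of capitals near the start. CACCC occurred in 54.9% of all 33469 windows of this length and TGANTCA in 7.33%. The Ttl window, not printed, held 2 GGCGCC matches, a pattern found in 11% of windows, and 1 of CACCC. A Svbp window held 1 match to ACGTG, against 19.3% of all windows. AGGTCA and TATAAA, in 16.2% and 14.2% of all windows, had no match in the windows of the 4 genes. G and C made up 61.3% of the Vash1 window and 71.3% of the Ttl window, against a median of 51.7% over all windows. These matches describe letters only.

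Vash1 (ENSRNOG00000010457), the tubulin carboxypeptidase gene of endothelial cells, was 11.2-fold higher after the Glenn operation averaged over diets, and high on each of them. In sham control libraries, replicates 1 to 5, it was at 17.0, 17.8, 18.9, 15.9 and 14.3 CPM, and in Glenn control libraries at 262, 119, 170, 192 and 154 CPM. On the deficient diet the sham libraries were at 16.9, 12.9, 18.1, 14.8 and 18.3 CPM and the Glenn libraries at 139, 256, 252, 243.0 and 264 CPM. On the excess diet the sham libraries were at 20.6, 21.3, 18.6, 17.0 and 17.8 CPM and the Glenn libraries at 168, 165, 183, 188 and 223 CPM. The lowest Glenn library, a control-diet one, stood well above the highest sham library, an excess-diet one, and sham and Glenn libraries did not overlap on any diet. Vash1 was the only one of the 4 genes, 1 of 4, without overlap between the 15 sham and the 15 Glenn libraries, against 5.83% of all genes tested.

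**Figure D1:**
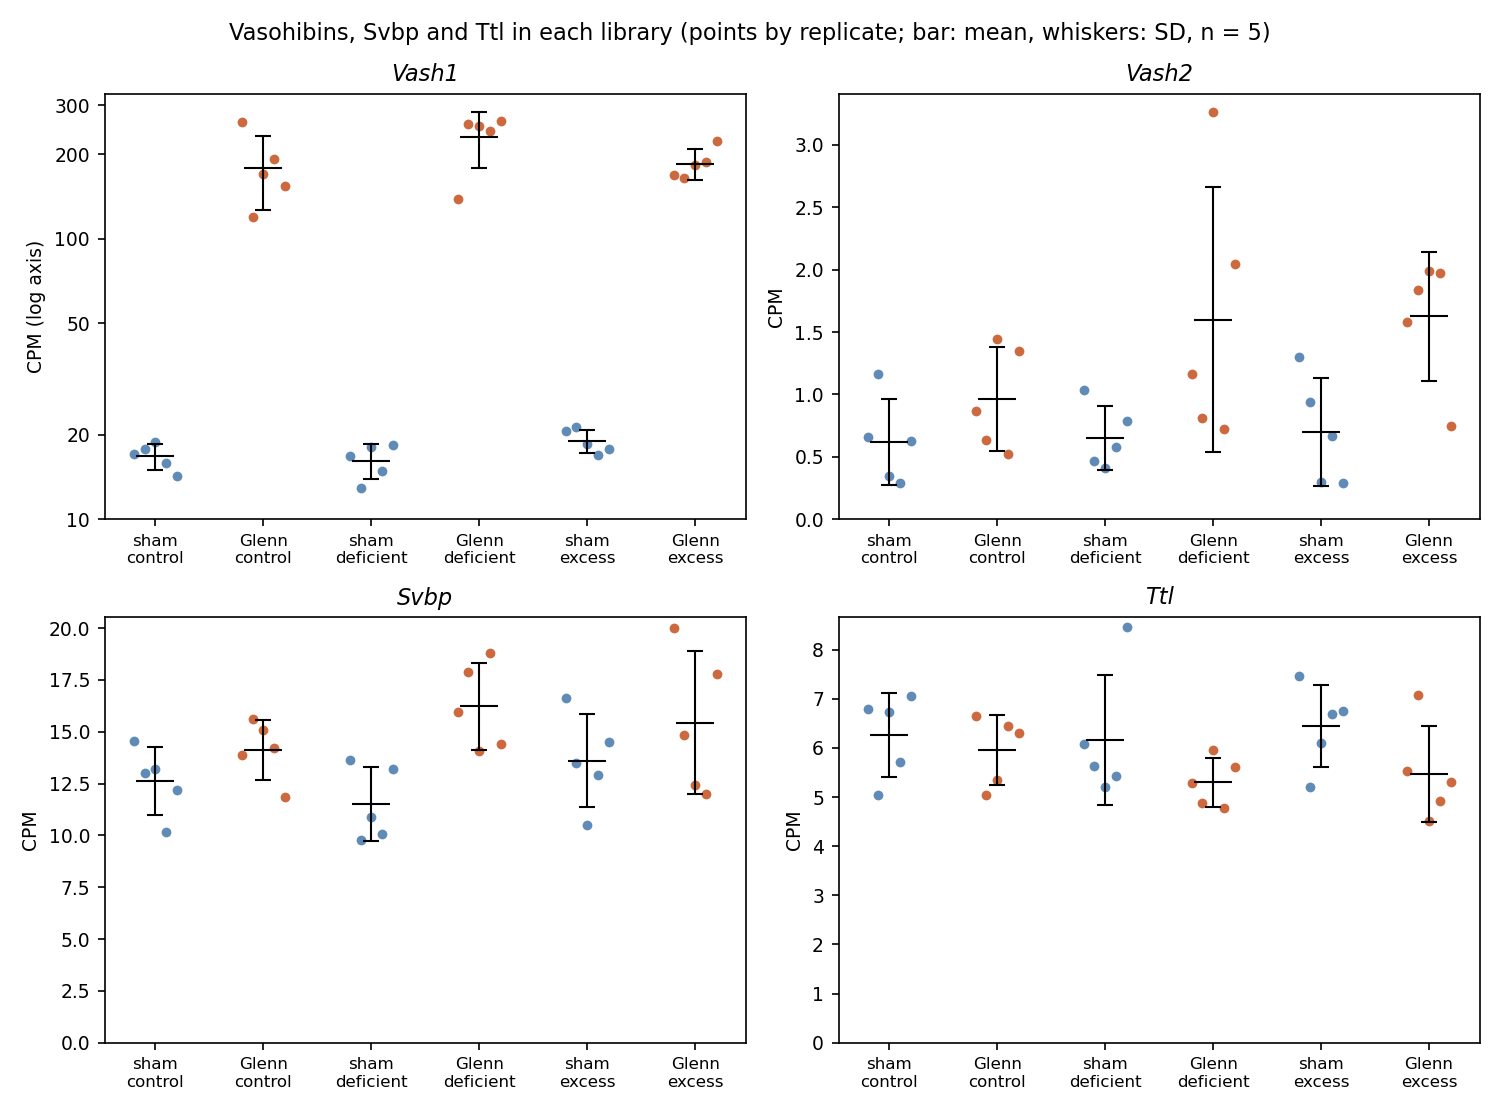
Level of each gene in CPM (vertical axes, logarithmic for Vash1 and linear from 0 for the others) in the 6 groups (horizontal axes), 1 point per library (blue sham, orange Glenn) with the mean (bar) and SD (whiskers, n = 5). Vash1 lies between 12.9 and 21.3 CPM in all sham libraries and between 119 and 264 CPM in all Glenn libraries, while the points of the other 3 genes overlap.

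Mean Vash1 was 17.3 ± 2.23 CPM over the sham libraries (SD, n = 15) and 199 ± 47.9 CPM over the Glenn libraries (SD, n = 15). The fitted log2 change, Glenn minus sham, was 3.48 (SE 0.10) averaged over diets. By size of change Vash1 ranked 67 among the genes tested. Within diets the log2 change was 3.42 (SE 0.17) on the control diet, 3.88 (SE 0.17) on the deficient diet and 3.14 (SE 0.18) on the excess diet. In order of mean level the groups ran sham deficient (16.2 CPM), sham control (16.8 CPM), sham excess (19.0 CPM), Glenn control (180 CPM), Glenn excess (186 CPM) and Glenn deficient (231 CPM). Neighbours in this order overlapped library by library, except at the step from sham excess to Glenn control. Vash1 also varied more among replicates after the Glenn operation on the control diet, with a coefficient of variation of 29.7%, against 10.6% in the sham libraries of that diet. On the excess diet these values were 12.5% and 9.54%, and on the deficient diet 22.5% and 14.1%.

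Vash2 (ENSRNOG00000003832), the second vasohibin, was scarce, with 10 to 116 counts per library and a median of 32.5. Counting alone gives an SD of 31.6% at the lowest of these counts. In sham control libraries it was at 0.656, 1.17, 0.349, 0.291 and 0.625 CPM, in Glenn control libraries at 0.865, 0.632, 1.44, 0.521 and 1.35 CPM. The sham deficient libraries were at 1.03, 0.466, 0.408, 0.577 and 0.785 CPM and the Glenn deficient libraries at 1.17, 0.813, 3.26, 0.719 and 2.04 CPM. The sham excess libraries were at 1.30, 0.942, 0.300, 0.671 and 0.293 CPM and the Glenn excess libraries at 1.58, 1.84, 1.99, 1.98 and 0.747 CPM. Glenn libraries leaned high, with replicate 3 of Glenn deficient highest of all, but the groups overlapped on every diet. Of the 15 Glenn libraries, 8 lay above the highest sham library and 14 above the sham median.

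The log2 change of Vash2 averaged over diets was 1.07 (SE 0.28). It was 0.62 (SE 0.47) on the control diet, 1.22 (SE 0.48) on the deficient diet and 1.36 (SE 0.52) on the excess diet. Without sham control replicate 2 the control-diet value was 0.99. Among the 17 libraries low in RT1-CE16, of which only 2 were sham control and 3 Glenn control, it was 0.10. On that diet the difference thus depended on the libraries used. The lymphatic transcription factor gene Prox1 rose after the Glenn operation (log2 change 1.12, SE 0.15, edgeR adjusted p = 3.29e-07). The 5 lymphatic markers together summed to 945 to 1840 CPM in sham and 2140 to 4790 CPM in Glenn libraries, and all 5 had a higher mean after the Glenn operation. Their part in the Vash2 values was not tested. Across the 30 libraries, which share the group structure removed here, deviations of Vash2 and of the lymphatic markers from their group means had a correlation of 0.229.

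Svbp (ENSRNOG00000007404), which both vasohibins need for stability and activity, was slightly higher after the Glenn operation. In sham control libraries it was at 14.6, 13.0, 13.2, 10.2 and 12.2 CPM and in Glenn control libraries at 13.9, 15.6, 15.1, 14.2 and 11.9 CPM. On the deficient diet the sham libraries were at 13.7, 9.77, 10.9, 10.1 and 13.2 CPM and the Glenn libraries at 15.9, 17.9, 14.1, 18.8 and 14.4 CPM. On the excess diet the sham libraries were at 16.64, 13.48, 10.49, 12.93 and 14.51 CPM and the Glenn libraries at 20.02, 14.86, 12.45, 12.0 and 17.8 CPM. Sham and Glenn overlapped on the control and excess diets. On the deficient diet they did not, but the share of all genes without overlap on that diet alone was not counted. Replicate 1 of Glenn excess was highest of all and replicate 2 of sham deficient lowest. The log2 change averaged over diets was 0.29 (SE 0.08), from a mean of 12.6 ± 1.98 CPM (SD, n = 15) to 15.3 ± 2.46 CPM (SD, n = 15). Within diets it was 0.16 (SE 0.14), 0.48 (SE 0.14) and 0.24 (SE 0.15) on the control, deficient and excess diets. Single libraries carried part of the smaller values: the control-diet value was 0.09 without sham control replicate 4, and the excess-diet value 0.08 without Glenn excess replicate 1 and 0.16 without sham excess replicate 3. Among marker lists, with group means removed over the 30 libraries, Svbp had correlations of -0.578 with the mesothelial, 0.526 with the general capillary, 0.476 with the endothelial and -0.387 with the lymphatic markers. Mesothelial markers summed to 210 to 499 CPM in sham and 142 to 577 CPM in Glenn libraries, and the part of these cells in the Svbp values was not tested. The mean levels ran sham deficient (11.5 CPM), sham control (12.6 CPM), sham excess (13.6 CPM), Glenn control (14.1 CPM), Glenn excess (15.4 CPM) and Glenn deficient (16.2 CPM), the same order of groups as for Vash1, and every neighbouring pair overlapped.

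Ttl (ENSRNOG00000018205), the enzyme gene for the reverse reaction, was slightly lower on average after the Glenn operation. In sham control libraries it was at 6.79, 5.04, 6.74, 5.71 and 7.05 CPM and in Glenn control libraries at 6.66, 5.04, 5.35, 6.44 and 6.29 CPM. The sham deficient libraries were at 6.07, 5.63, 5.21, 5.44 and 8.46 CPM and the Glenn deficient libraries at 5.28, 4.88, 5.96, 4.77 and 5.60 CPM. The sham excess libraries were at 7.46, 5.21, 6.10, 6.68 and 6.76 CPM and the Glenn excess libraries at 5.53, 7.08, 4.52, 4.93 and 5.30 CPM. Groups overlapped on every diet. No Glenn library lay above the highest sham library, replicate 5 of sham deficient, and 4 of 15 lay below the lowest. The log2 change averaged over diets was -0.17 (SE 0.09), with means of 6.29 ± 0.963 CPM in sham (SD, n = 15) and 5.57 ± 0.757 CPM in Glenn libraries (SD, n = 15). It was -0.07 (SE 0.15), -0.24 (SE 0.15) and -0.18 (SE 0.16) on the control, deficient and excess diets. Without sham deficient replicate 5 the deficient-diet value was -0.10 and the averaged value -0.10, and without Glenn excess replicate 2 the excess-diet value was -0.34. The control-diet value lay between -0.14 and -0.02, with 7 of its 10 libraries each moving it by more than 1.5 times (sham control 1, 2, 3 and 5, Glenn control 1, 2 and 3). In series A alone the averaged value was -0.07 and among the RT1-CE16-low libraries -0.06. Groups ran from Glenn deficient (5.30 CPM) through Glenn excess (5.47 CPM), Glenn control (5.96 CPM), sham deficient (6.16 CPM) and sham control (6.26 CPM) to sham excess (6.44 CPM), and neighbours overlapped throughout.

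**Figure D2:**
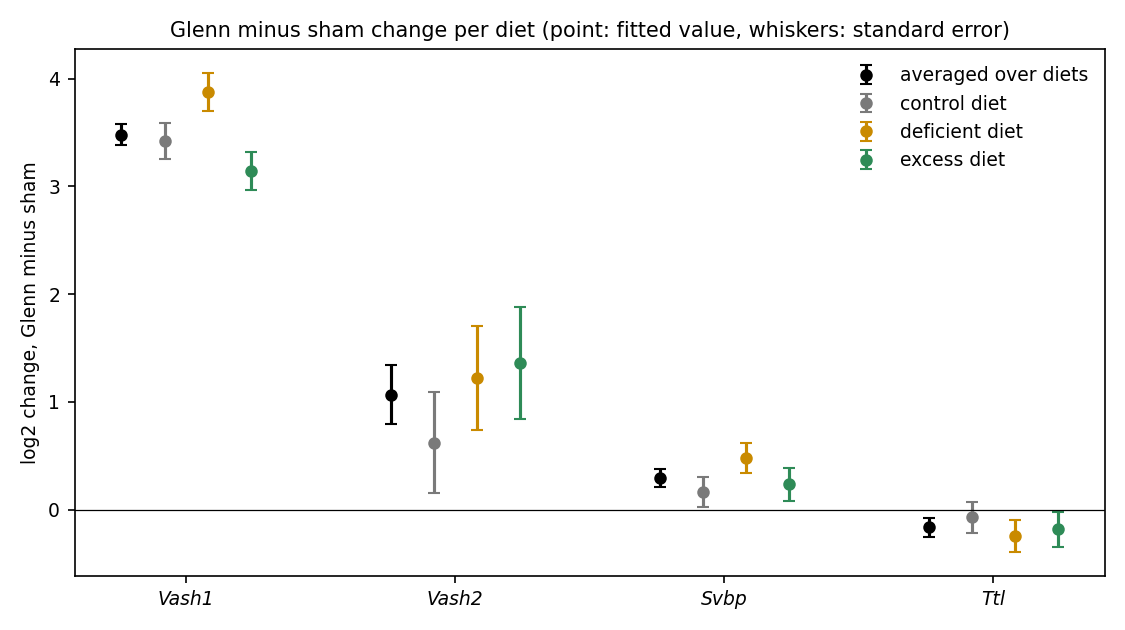
Fitted log2 change, Glenn minus sham (vertical axis), for each gene (horizontal axis), averaged over diets (black) and on the control (grey), deficient (orange) and excess (green) diets, with standard errors as whiskers. Vash1 lies between 3.14 and 3.88 on the 3 diets, Vash2 between 0.62 and 1.36, Svbp between 0.16 and 0.48, and Ttl between -0.24 and -0.07.

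The ratio of Vash1 to Ttl within a library compares the removing with the restoring enzyme gene without any scaling between libraries. Gene length enters its level but cancels in its change. The count ratio was 2.81 on average in sham libraries and 36.2 in Glenn libraries. On the log2 scale the ratio was 1.47 ± 0.27 in sham (SD, n = 15), from 1.02 to 2.03, and 5.13 ± 0.40 in Glenn libraries (SD, n = 15), from 4.54 to 5.72. The difference averaged over diets was 3.66, with 3.62 to 3.72 when 1 library was left out at a time. Per diet the mean log2 ratio on the control diet was 1.43 after sham surgery and 4.87 after the Glenn operation, on the deficient diet 1.41 and 5.41, and on the excess diet 1.57 and 5.09. The log2 ratio of Vash1 to its partner Svbp was 0.47 ± 0.19 in sham (SD, n = 15) and 3.68 ± 0.40 in Glenn libraries (SD, n = 15), a count ratio of 1.39 against 13.3. Enzyme activity and tubulin tyrosination were not measured.

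**Figure D3:**
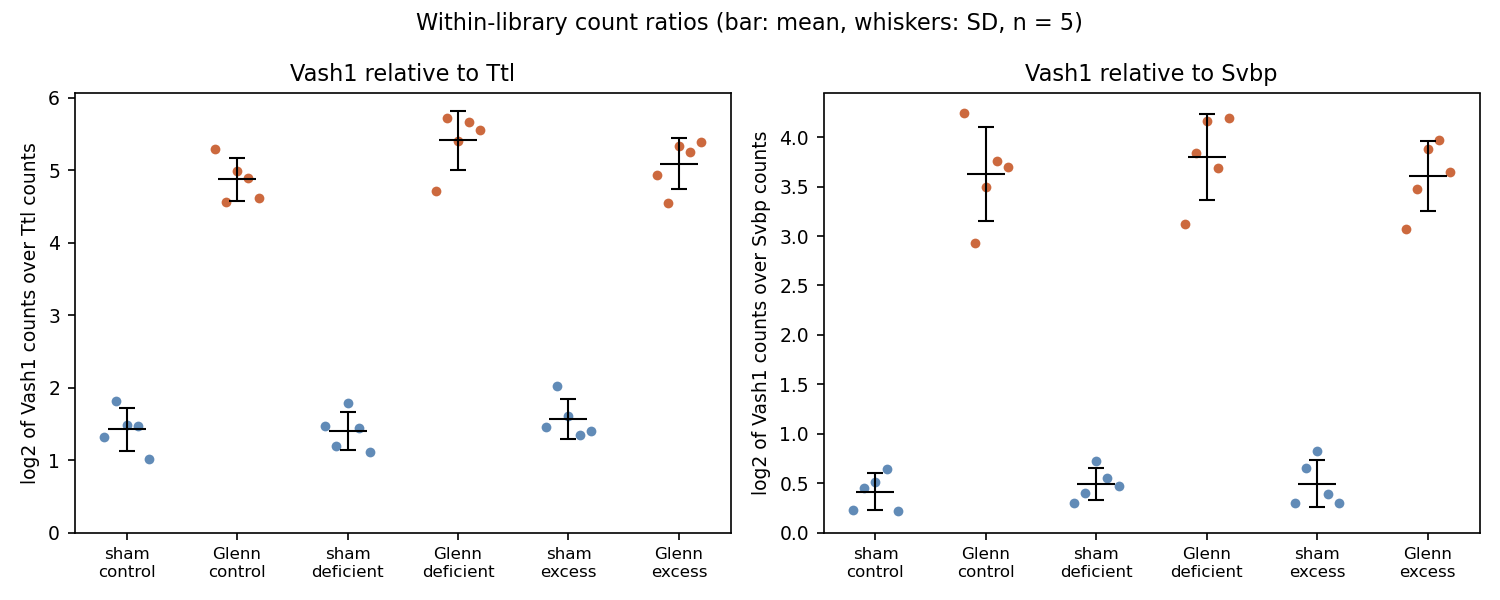
Log2 ratio of Vash1 counts to Ttl counts (left) and to Svbp counts (right) within each library (blue sham, orange Glenn) for the 6 groups, with the mean (bar) and SD (whiskers, n = 5). Sham libraries reach 2.03 for Ttl and 0.83 for Svbp at most, and Glenn libraries start at 4.54 and 2.93.

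Diet was tested next, since the set was not selected on it. None of the 4 genes was called different between diets within an operation, 0 of 24 tests with edgeR at an adjusted p under 0.05, and 0 with DESeq2 or limma voom. At an unadjusted p under 0.05 there were 2 of 24, both for Vash1 and both for excess against deficient. Few genes of the whole table were called either. After sham surgery the shares were 0% for deficient against control, 0.241% for excess against control and 0.0124% for excess against deficient, with 844, 1788 and 854 of the 16171 genes at an unadjusted p under 0.05. After the Glenn operation the shares were 0.00618%, 1.47% and 0%, with 1598, 2254 and 837 genes at an unadjusted p under 0.05.

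The log2 difference of Vash1, excess minus deficient diet, was 0.37 after sham surgery (95% interval 0.02 to 0.72, edgeR adjusted p = 0.943). After the Glenn operation it was -0.36 (95% interval -0.66 to -0.06, edgeR adjusted p = 0.950). Against the control diet the Vash1 differences after sham surgery were -0.19 for the deficient diet (95% interval -0.54 to 0.16) and 0.18 for the excess diet (-0.13 to 0.49). After the Glenn operation they were 0.27 (-0.05 to 0.58) and -0.09 (-0.43 to 0.24). The Vash2 intervals were wide, for example -0.12 to 1.77 around 0.83 for deficient against control after the Glenn operation, so differences of this size were not resolved with these counts and this spread. For Svbp the same comparison gave 0.24 (95% interval -0.05 to 0.53), and for Ttl -0.13 (-0.43 to 0.17).

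Whether the Glenn effect itself differed between diets was tested with 1 F test per gene. None of the 4 genes was called (edgeR, 0 of 4, against 0.00618% of all genes), nor with DESeq2 or limma voom. Vash1 had the smallest unadjusted p, 0.0176 (edgeR adjusted p = 0.758), and was the only one of the 4 under 0.05, where 925 of the 16171 genes lay. The difference in its Glenn effect, excess minus deficient diet, was -0.73 on the log2 scale (SE 0.24, 95% interval -1.21 to -0.25, edgeR adjusted p = 1). Over the 40 alternative settings that estimate lay between -0.83 and -0.55. For Vash2, Svbp and Ttl the adjusted p was 0.999 each.

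The 3 other ways in which libraries differed did not give a call either. Between series B and A the Vash1 log2 difference was 0.23 (SE 0.13, edgeR adjusted p = 0.470), and 0 of 4 genes were called, against 1.64% of all genes. Between RT1-CE16 low and high libraries 0 of 4 were called, against 6.53%, with a Vash1 difference of -0.10 (SE 0.10). Between male and female libraries 0 of 4 were called, against 0.0804%, with a male-minus-female difference of 0.20 for Svbp (SE 0.08, edgeR adjusted p = 0.497). At an unadjusted p under 0.05 the Svbp sex difference was the only one of these 12 tests. The Glenn-minus-sham value of Vash1 was 3.48 in series A alone and 3.47 among RT1-CE16-low libraries alone, which is as large as in all libraries. In series A, which holds all RT1-CE16-low libraries, every sham library had a lower number than every Glenn library. The operation and the order of library numbers cannot be told apart there.

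Marker genes of other cell types and of the classes of lung endothelium stood at other levels after the Glenn operation. The 8 mural markers, of pericytes and smooth muscle, summed to 175 to 360 CPM in sham and 526 to 1790 CPM in Glenn libraries, and all 8 had a higher mean after the Glenn operation, Acta2 for example at 31.4 and 126 CPM. The 7 endothelial markers summed to 6560 to 8350 and 4890 to 7340 CPM, the 7 fibroblast markers to 1280 to 3260 and 1810 to 4690 CPM. The 6 leukocyte markers used summed to 13000 to 24500 and 8040 to 18900 CPM, nearly all of it Lyz2, while Ptprc stayed between 0.569 and 18.9 CPM and the T-cell marker Cd3e between 0 and 1.31 CPM.

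Sums for the capillary, arterial and venous classes of endothelium follow, and those of the lymphatic markers are given above with Vash2. The 3 general capillary markers summed to 4480 to 7410 CPM in sham and 1640 to 4160 CPM in Glenn libraries, without overlap. Most of this sum was Plvap, at 5149 and 1563 CPM on average. Aplnr was lower as well, at 909 and 720 CPM, while Gpihbp1 was slightly higher, at 128 and 138 CPM. The 4 aerocyte markers summed to 985 to 1730 and 685 to 1080 CPM, with Car4 at 409 and 110 CPM, although Apln, also in that list, was at 184 and 476 CPM. The 5 arterial markers summed to 695 to 1010 and 722 to 1450 CPM, and the 5 venous markers to 1540 to 2600 and 815 to 2100 CPM. With group means removed, over the 30 libraries, Vash1 had its largest correlation in size with the epithelial markers (-0.384), then 0.249 with the endothelial, and it had -0.107 with the mural, -0.104 with the lymphatic, 0.0987 with the general capillary and 0.0668 with the aerocyte markers. The part of these cell types in the Vash1 values was not tested.

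The wider tubulin-tail pathway was read from 62 further genes, of which 59 were in the table under 60 rows and 54 rows passed the filter. Averaged over diets, 14 rose and 12 fell with edgeR at an adjusted p under 0.05, and 28 did not pass, which is 48.1% called, against 48.2% of all genes. The higher share was 25.9% against 23.4%, and the lower share 22.2% against 24.7%. Their median log2 change was 0.03, against -0.01 over all genes tested. Within diets 14 rows were called on the control diet (25.9% against 24.9%), 13 on the deficient diet (24.1% against 27.4%) and 12 on the excess diet (22.2% against 21.9%). Sham and Glenn libraries did not overlap for 4 rows, 7.41% against 5.83%, namely Tubb4a, Tubb2a, Mapre3 and Vegfa, all lower after the Glenn operation.

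**Figure D4:**
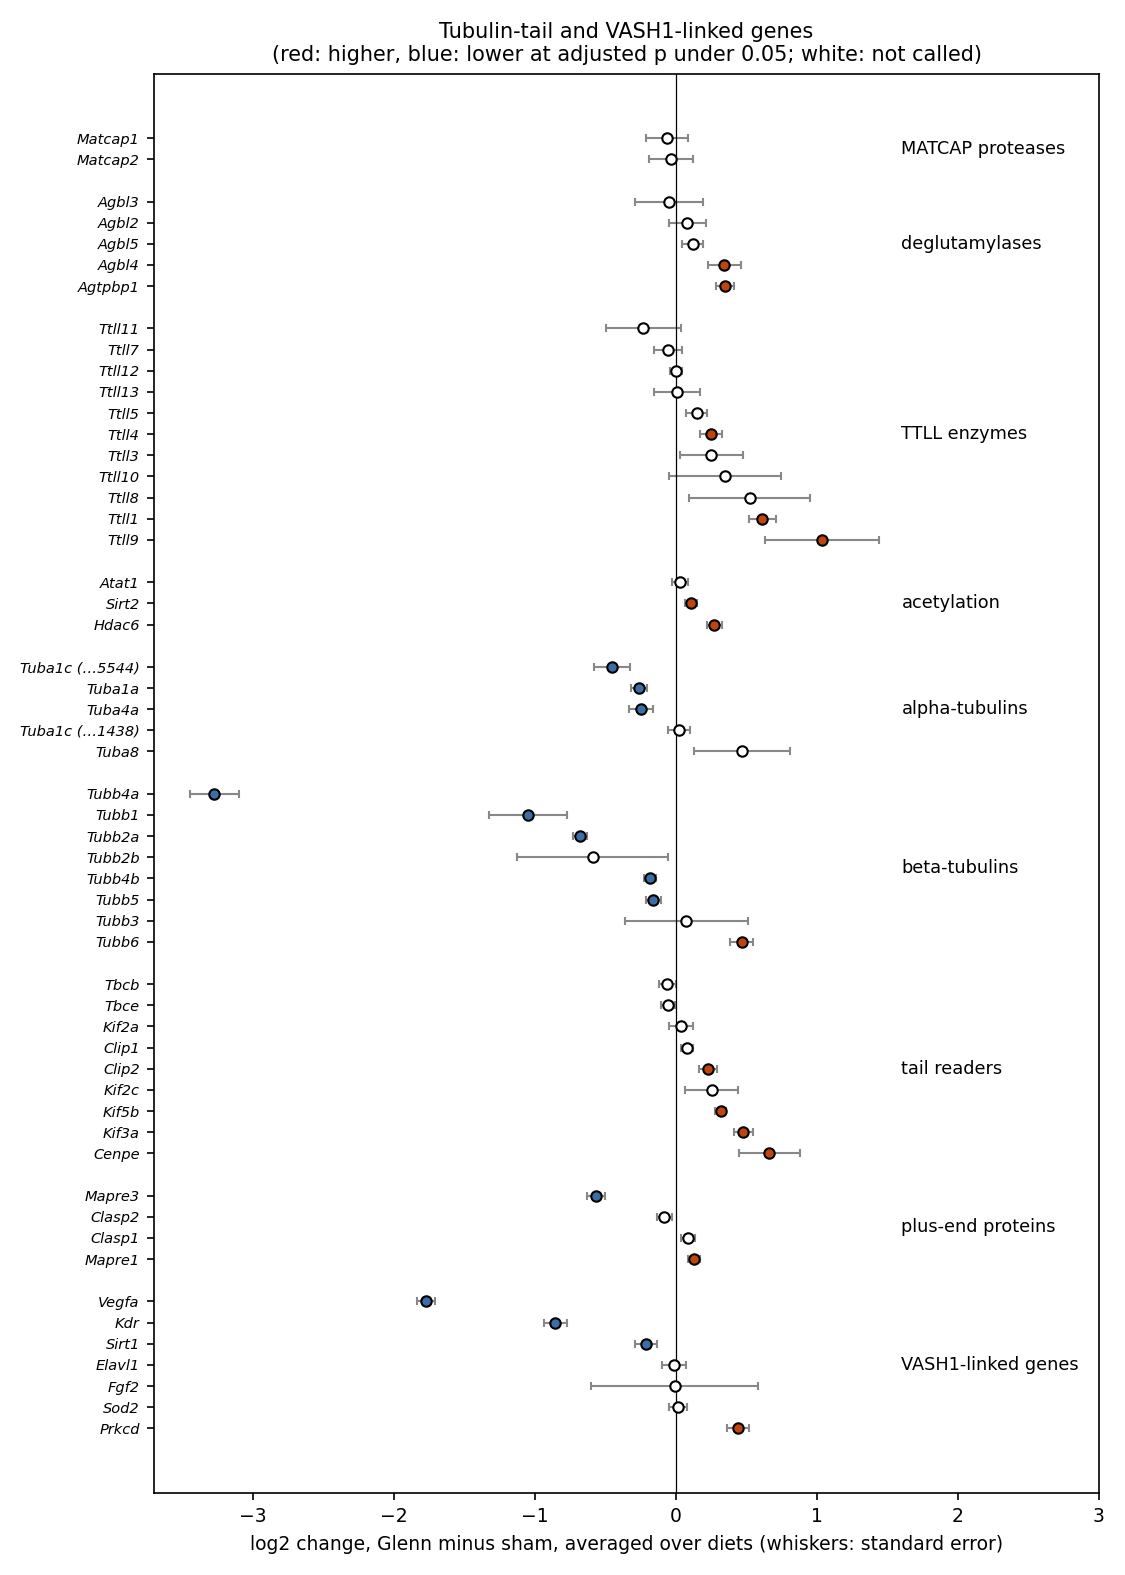
Log2 change, Glenn minus sham, averaged over diets (horizontal axis) with its standard error for the 54 pathway rows tested (vertical axis, grouped by role), red where higher, blue where lower and white where not called at an adjusted p under 0.05. Tubb4a lies at -3.27 and Vegfa at -1.77, outside the range of the other rows, and both MATCAP proteases lie near 0.

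The other detyrosinating enzymes did not pass the test. Matcap1 was at 1.78 ± 0.475 CPM in sham libraries (SD, n = 15) and 1.71 CPM on average in Glenn libraries, which is -0.07 on the log2 scale (SE 0.15, edgeR adjusted p = 0.750). Its paralog Matcap2 gave -0.03 (SE 0.16, edgeR adjusted p = 0.877). Of the 5 carboxypeptidases tested that trim glutamate from tubulin tails, Agtpbp1 and Agbl4 rose and 3 did not pass. Agtpbp1 went from 15.5 to 19.8 CPM (log2 change 0.35, SE 0.07, adjusted p = 7.1e-05) and Agbl4 from 4.97 to 6.23 CPM (0.34, SE 0.12, adjusted p = 0.0156). The Agbl4 call was lost in series A alone (0.33, adjusted p = 0.107) and among RT1-CE16-low libraries (0.32, adjusted p = 0.237), with changes of nearly the same size.

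Among the tubulin tyrosine ligase-like enzymes, relatives of Ttl that add glutamate or glycine chains, 3 of 11 rose and none fell. Ttll1, the catalytic subunit of a polyglutamylase, went from 5.86 to 8.97 CPM (log2 change 0.61, SE 0.09, edgeR adjusted p = 3.88e-06). Ttll9 went from 0.262 to 0.532 CPM (1.04, SE 0.41, adjusted p = 0.0359). Its call was lost when any 1 of 10 libraries was left out (Glenn control 1, Glenn deficient 3, Glenn excess 3, sham control 3, 4 and 5, sham deficient 3 and 4, sham excess 1 and 5), with adjusted p from 0.0504 to 0.0843. Ttll4, another polyglutamylase, went from 10.1 to 12.0 CPM (0.25, SE 0.08, adjusted p = 0.00828). In series A alone the Ttll9 and Ttll4 calls were both lost (0.74 and 0.18, adjusted p = 0.233 and 0.144), as they were among RT1-CE16-low libraries (0.56 and 0.16, adjusted p = 0.410 and 0.318), which left Ttll1 as the only one of the 3 called there. Of the acetylation genes, both deacetylases passed. Hdac6 went from 21.9 to 26.2 CPM (log2 change 0.27, SE 0.05, adjusted p = 0.000125). Sirt2 changed by 0.11 (SE 0.04, adjusted p = 0.0497), which passed in only 16 of 40 alternative settings. The acetylase Atat1 did not pass (0.03, SE 0.06).

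The tubulins themselves are the substrate. Of 5 alpha-tubulin rows 3 fell and none rose. Tuba1a went from 1381 to 1160 CPM (log2 change -0.26, SE 0.05, edgeR adjusted p = 0.000204), and Tuba4a, whose tail is made without the final tyrosine, from 32.6 to 27.9 CPM (-0.24, SE 0.09, adjusted p = 0.0195). The Tuba1a call was lost in series A alone (-0.15, adjusted p = 0.0746) and among RT1-CE16-low libraries (-0.13, adjusted p = 0.211). Tuba1c stood in 2 rows, one of which fell (ENSRNOG00000015544, -0.45, SE 0.13, adjusted p = 0.00364) while the more abundant one did not pass (ENSRNOG00000021438, 0.02, SE 0.08). The call of the first was lost too in series A alone (-0.33, adjusted p = 0.126) and among RT1-CE16-low libraries (-0.26, adjusted p = 0.363). Of the 3 only Tuba4a was thus called in both subsets, which share libraries and are not separate checks. Alpha-tubulin genes are nearly identical in coding sequence, so the division of reads among them is uncertain. No row of the table is named Tuba1b.

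Of 8 beta-tubulins 5 fell and 1, Tubb6, rose. Tubb4a had the largest change of the pathway rows, from 18.9 ± 7.61 CPM in sham libraries (SD, n = 15; 6.22 to 35.1 CPM) to 1.85 CPM in Glenn libraries (0.922 to 2.78 CPM). Its log2 change was -3.27 (SE 0.17, edgeR adjusted p = 5.76e-15), nearly the size of the Vash1 change with the opposite sign, and it was -3.50, -2.78 and -3.54 on the control, deficient and excess diets. Tubb2a fell from 140 to 87.6 CPM (-0.68, SE 0.05, adjusted p = 1.35e-12). Tubb1, the beta-tubulin of platelets and megakaryocytes, fell from 7.77 to 4.04 CPM (-1.05, SE 0.28, adjusted p = 0.00264). The Tubb1 call was lost in series A alone (-0.85, adjusted p = 0.094) but kept among RT1-CE16-low libraries, at -0.61. All 3 platelet markers had a lower mean after the Glenn operation as well: Pf4 was at 24.4 and 15.7 CPM, Itga2b at 25.3 and 14.4 CPM and Ppbp at 0.227 and 0.0743 CPM in sham and Glenn libraries, while the erythroid marker Alas2 was at 0.110 and 0.951 CPM. The 4 together summed to 20.9 to 88.8 and 21.3 to 82.3 CPM. Their part in the Tubb1 values was not tested. Tubb4b fell by 0.18 (SE 0.04, adjusted p = 0.000493) and Tubb5 by 0.16 (SE 0.05, adjusted p = 0.0121). The Tubb4b call was lost among RT1-CE16-low libraries (-0.16, adjusted p = 0.0753). The Tubb5 call was lost there (-0.07, adjusted p = 0.578) and in series A alone (-0.09, adjusted p = 0.316). Tubb6 went from 59.9 to 84.3 CPM (0.47, SE 0.08, adjusted p = 1.85e-05).

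Of 9 proteins whose binding or movement depends on the tail, 4 rose and none fell. Kif5b, a kinesin-1 heavy chain and a motor that prefers detyrosinated tracks, went from 148 to 185 CPM (log2 change 0.32, SE 0.04, edgeR adjusted p = 3.25e-08). Kif3a, a kinesin-2 motor, went from 12.5 to 17.8 CPM (0.48, SE 0.07, adjusted p = 4.94e-07). Cenpe, the mitotic kinesin that follows detyrosinated microtubules, went from 1.64 to 2.62 CPM (0.66, SE 0.22, adjusted p = 0.0118). The Cenpe call was lost in series A alone (0.68, adjusted p = 0.0686) and among RT1-CE16-low libraries (0.775, adjusted p = 0.0699). In neither subset was the change smaller. Clip2, a relative of Clip1 that binds the tyrosinated tail through the same kind of domain, was the other gene that rose, from 21.8 to 25.5 CPM (0.23, SE 0.06, adjusted p = 0.00339). Clip1 itself (0.08, SE 0.04) and the depolymerising kinesins Kif2a (0.04, SE 0.08) and Kif2c (0.25, SE 0.19), which also prefer the tyrosinated tail, did not pass, nor did Tbcb (-0.06, SE 0.06) and Tbce (-0.06, SE 0.05). Of 4 plus-end genes, Mapre3, the gene of EB3, fell from 17.95 to 12.29 CPM (-0.56, SE 0.06, adjusted p = 1.3e-08), and Mapre1, the gene of EB1, rose by 0.13 (SE 0.04, adjusted p = 0.0139), and by 0.21 in series A alone.

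Of 7 genes linked to Vash1, not all of them as its regulators, 3 fell, 1 rose and 3 did not pass. Vegfa, a growth factor that induces Vash1 in cultured endothelium, fell from 1316 ± 197 CPM in sham libraries (SD, n = 15; 1096 to 1655 CPM) to 388 CPM in Glenn libraries (289 to 484 CPM), which is -1.77 on the log2 scale (SE 0.06, edgeR adjusted p = 7.15e-19). On the 3 diets it was -1.61, -1.53 and -2.19. Kdr, the gene of its receptor VEGFR2, fell from 1263 to 708 CPM (-0.85, SE 0.08, adjusted p = 3.09e-10). Lung epithelium is a main source of Vegfa, and the 6 epithelial markers used summed to 25200 to 43800 CPM in sham and 18200 to 39600 CPM in Glenn libraries. Most of this sum was Sftpc, at 25750 and 19770 CPM on average. Sftpb, Krt8 and Scgb1a1 also had a lower mean after the Glenn operation, while Epcam (129 and 146 CPM) and Foxj1 (2.08 and 3.38 CPM) had a higher one. The part of epithelial cells in the Vegfa values was not tested. Prkcd, a kinase in the route from VEGF to Vash1, rose by 0.44 (SE 0.08, adjusted p = 4.51e-05), a call lost among RT1-CE16-low libraries (0.27, adjusted p = 0.0539). Sirt1 was the third gene that fell (-0.21, SE 0.08, adjusted p = 0.0248). Its call was lost in series A alone (-0.235, adjusted p = 0.0913) and among RT1-CE16-low libraries (-0.24, adjusted p = 0.203), though the change was no smaller. Fgf2, at 0.166 CPM in sham and 0.153 CPM in Glenn libraries, did not pass (-0.01, SE 0.59).

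Tested genes that had a symbol and averaged 1 CPM or more numbered 12895. Those whose log2(CPM + 1) followed Vash1 most closely over the 30 libraries were Dpysl3 (Pearson r = 0.988), Smad1 (0.987), Prnd (0.984), Angpt2 (0.984) and Rnd3 (0.982). Smad1 relays BMP signals, and Angpt2 is a ligand of the Tie2 receptor. The 30 libraries share the sham and Glenn groups, which carry most of these correlations. Angpt2 went from 16.1 ± 1.27 CPM in sham (SD, n = 15) to 85.0 ± 18.1 CPM in Glenn libraries (SD, n = 15). With the group means removed, the leading genes were Impdh1 (0.822), Adam12 (0.796), Lxn (0.785), Pxdn (0.760) and Unc5b (0.755). The 2 sets of names had no gene in common. For Ttl the closest genes were Fancf (0.646), Hps1 (0.572), Cad (0.570), Tbl3 (0.562) and Depdc5 (0.560), and after removal of group means R3hcc1 (0.662), Aurkc (0.611), Crtc1 (0.609), Nono (0.604) and Hps1 (0.580). Among the 4 genes themselves, deviations from group means had correlations between -0.116 and 0.225. Vash2 had only 10 to 116 counts per library, so counting noise could hide a relation that involves it.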

How the data were processed

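RNA was prepared with PureLink kits and libraries with the SMART-Seq Ultra Low v4 kit, per the labels' protocols. The authors deposited estimated counts per gene, of which 13.6% of all values are not whole. The submitters' processing notes name FastQC, Trim Galore, Picard, STAR and Salmon and the builds mRatBN7.2 and rn7, without roles. Versions, the annotation release and the strand setting are not given in the sources used here. All 30 columns were used.

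Counts were rounded. Genes were kept with edgeR's filterByExpr (minimum count 10, total 15), which left 16171, and scaled by TMM. One edgeR 4.0.16 quasi-likelihood fit (R 4.3.3, robust) held 6 group means and a library-series term (series A or B, from the library numbers). Benjamini-Hochberg adjustment ran over all genes tested, with a threshold of 0.05. CPM used the TMM library sizes. limma 3.58.1 (voom), DESeq2 1.42.0, DESeq2 size factors, no filter, other terms and subsets, the replicate block and leaving out each library were alternatives. The procedure was tested on simulated data. Replicates were not repeat reads of a single library: over 60 pairs within groups, chi-square divided by its degrees of freedom ran from 20.5 to 122. This check cannot tell whether the replicates came from separate animals.

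The 4 genes, the pathway and marker lists and the tests were chosen with earlier results of these data known. Named pathway genes are Matcap1, Matcap2, Tuba1a, Tuba1b, Tuba4a, Vegfa, Kdr and the 2 called genes with the largest change in each list, and the 5 most correlated genes by each measure. Pathway genes named outside this rule (Atat1, Tubb6, Tubb2a, Tubb4b, Tubb5, Sirt1, Kif5b, Clip1, Clip2, Kif2a, Kif2c, Tbcb, Tbce, Ttll4, Prkcd, Fgf2, the second Tuba1c row) were chosen after their values were seen. Figures were drawn with matplotlib 3.10.9. Promoter windows are from RefSeq (GRCr8), and all 4 genes matched by symbol.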

Additional observations from a re-analysis of the deposited data

Results flagged for a closer look

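Each of the 4 genes, both Vash1 ratios and the 6 groups of 5 libraries were examined for a single library far from the others, 36 sets in all, of which chance would give about 1.8. There were 2. In Glenn deficient libraries replicate 1 had the lowest Vash1 level, 138.8 CPM against 243 to 263.8 CPM in the other 4, and its gap to the next was 0.833 of the range of the group. It was still above every sham library. In sham deficient libraries replicate 5 had the highest Ttl level, 8.464 CPM against 5.21 to 6.074 CPM in the other 4, a gap of 0.734 of the range.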

How the results depend on the processing

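Over 40 alternatives, 30 of which left out 1 library, the Vash1 change averaged over diets lay between 3.42 and 3.53. None of 1440 member values for diet or for the Glenn effect by diet was called, and 76 had another sign than reported. The count of pathway genes called was 26 (14 higher, 12 lower). It fell to 16 (9 and 7) in series A alone and to 15 (8 and 7) among RT1-CE16-low libraries. Both subsets had fewer samples, and the RT1-CE16-low libraries all lay within series A. Clip1 was called without Glenn control replicate 3 (adjusted p = 0.048). Sirt2 lost its call without any 1 of 18 libraries (adjusted p to 0.107). The labels share replicate numbers only: same-numbered libraries had deviations with a mean correlation of 0.0963 (-0.246 to 0.292), against -0.0236 for other numbers, and 15 of 30 libraries correlated best with their own number. With the replicate block Vash1 changed by 3.47, 24 pathway genes were called, and Ttll9 (adjusted p = 0.0710) and Sirt2 (0.0765) were lost. Counts over the whole table moved more for diet, from 237 to between 2 and 557 (excess against control after Glenn), from 39 to 0 to 210 (after sham), from 1 to 1 to 63 (deficient against control after Glenn), from 0 to 0 to 26 (after sham), from 0 to 0 to 18 and from 2 to 0 to 12 (excess against deficient after Glenn and sham) and from 1 to 0 to 35 (Glenn effect by diet). Glenn against sham called 1563 to 4380 genes on the control diet (4023 reported), 2398 to 4770 on the deficient diet (4423) and 2152 to 4370 on the excess diet (3549). Depth limits Vash2 most, at 10 to 116 counts.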

Other observations

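The genes on either side of each member on its chromosome were read from the order of genes in RefSeq, with 3 on each side. Around Vash1 no neighbour changed by a similar amount: Angel1, the next gene on one side, rose by 0.30 on the log2 scale (SE 0.07, edgeR adjusted p = 0.000695), and Esrrb, on the other side and at 0.945 CPM in sham libraries, fell by 1.29 (SE 0.41, adjusted p = 0.00948). Ift43 rose by 0.19 (SE 0.06, adjusted p = 0.0102), and Gpatch2l, Irf2bpl and Cipc gave -0.03, -0.01 and -0.03 and did not pass. Around Vash2, Prox1 rose by 1.12 (SE 0.15, adjusted p = 3.29e-07) and Nsl1 by 0.59 (SE 0.17, adjusted p = 0.0041), Flvcr1, the adjacent gene on one side, fell by 0.40 (SE 0.10, adjusted p = 0.00137), and Rps6kc1, Angel2 and Tatdn3 gave -0.08, -0.08 and -0.12 and did not pass. Around Svbp, the glucose transporter gene Slc2a1 rose by 0.42 (SE 0.07, adjusted p = 2.1e-05) and Zfp691 and P3h1 fell by 0.19 and 0.16 (adjusted p = 0.0303 and 0.0259). Around Ttl, only Slc20a1 passed, at -0.13 (SE 0.05, adjusted p = 0.0415), and Polr1b gave -0.14 (adjusted p = 0.0755).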
